A study of Mus musculus with 40 samples.

Results

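The genes described here are 6 genes of 3 secreted suppressor routes of regulatory T cells, chosen by symbol from the 55421 genes of the count table. They are Il10, Ebi3, Il12a and Fgl2, which code for the secreted products, and Il10ra and Il10rb, which code for the chains of the IL-10 receptor. IL-10 is a cytokine that restrains myeloid cells and T cells, and its receptor joins the ligand-specific chain IL10RA to the shared chain IL10RB and signals through JAK1, TYK2 and STAT3. IL-35 is a heterodimer of EBI3 and the IL-12 p35 chain, which Il12a encodes. FGL2 is a fibrinogen-like protein that occurs as a membrane prothrombinase on macrophages and endothelium and as a soluble form released by regulatory T cells. In the gut, IL-10 from Foxp3+ T cells is known to hold back colitis.

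CD4+ T cells were sorted after perfusion and tissue digestion from mice of the genotype labelled WT, 2000 cells per library. Thy1.1+ cells of a Foxp3-Thy1.1 reporter are called Treg and Thy1.1- cells Tconv, the conventional T cells. The tissue groups were Treg of kidney, liver, lung, pancreas, the intraepithelial layer of the gut (IEL) and its lamina propria (LPL), and the lymphoid groups were Treg of blood, spleen and lymph node; Peyer's patch, a lymphoid organ of the gut, stood on neither side. Each of these 10 sources gave 3 Treg libraries and 1 Tconv library, 40 in all, and no group had a treatment beyond the perfusion and digestion. Age, sex, strain and which libraries share an animal are not given in the sources used here, so p-values measure only the spread between libraries. Kidney, liver, lung and pancreas are called solid organs, and IEL and LPL the gut wall.

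Libraries held 12197980 to 28823493 counts, so the limit of 3 counts that a count of 0 allows lay well under 1 CPM, the unit of counts scaled to a common library size. Foxp3, the gene read by the sort, averaged 219 ± 64.6 CPM in Treg (SD, n = 30) and 1.28 ± 1.95 CPM in Tconv (SD, n = 10). By source it was lowest in lymph node Treg, with a mean of 98.8 CPM and a range of 68.2 to 155 CPM. The means of the other Treg sources were 154 to 281 CPM, and the highest Tconv library had 6.74 CPM. The summed CPM of 5 T cell markers was 3446 to 6007 in Treg and 3869 to 6290 in Tconv. Markers of other cells were present in several libraries, and sums of such lists are given below. Levels of single members and list genes are CPM with TMM-scaled library sizes, while marker sums and levels of single markers are CPM of the library total without the TMM factor. All come from 3′ counts, which are not divided by gene length, so levels are compared between samples and not between genes. A log2 fold change is given ± its standard error, and a gene is called where the quasi-likelihood test of edgeR gave a p under 0.05 after Benjamini-Hochberg adjustment over all genes tested. Because RNA came from bulk sorted cells, fewer cells that express a gene and less of its RNA per cell cannot be told apart.

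In mm10, the build of the counts, Il10 (ENSMUSG00000016529.5) lies at chr1:131019845-131024974 on the plus strand and Fgl2 (ENSMUSG00000039899.5) at chr5:21372642-21378374 on the plus strand. Ebi3 (ENSMUSG00000003206.7) lies at chr17:55952640-55957022 and Il12a (ENSMUSG00000027776.12) at chr3:68690644-68698547, both on the plus strand. Il10ra (ENSMUSG00000032089.16) lies at chr9:45253837-45269149 on the minus strand and Il10rb (ENSMUSG00000022969.13) at chr16:91406164-91425834 on the plus strand. The strand setting of the counting is not given in the sources used here, and Ebi3 shares 270 exon bases with the antisense gene Gm16712, whose own level was 0 to 8.06 CPM over the 40 libraries. Il10rb shares 569 exon bases with Gm21970 on the same strand, which was at 0 in all 40 libraries.

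Of the 6 genes, Il12a, Fgl2 and Ebi3 matched the RefSeq promoter table (GRCm38.p6); Il10, Il10ra and Il10rb had no match. The 250 bases before the RefSeq start are shown for Fgl2 and Ebi3, because these are the 2 genes whose difference between Treg and Tconv changed between tissues and lymphoid sources. Both are 5′ to 3′ on the plus strand, and capitals mark a match to the AP-1 heptamer TGANTCA.
Fgl2, chr5:21372423-21372672: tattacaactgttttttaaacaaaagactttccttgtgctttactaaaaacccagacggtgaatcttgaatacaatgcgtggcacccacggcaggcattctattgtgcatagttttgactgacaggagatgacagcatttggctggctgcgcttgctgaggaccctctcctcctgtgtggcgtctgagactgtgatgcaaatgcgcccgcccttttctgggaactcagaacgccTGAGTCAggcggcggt
Ebi3, chr17:55952373-55952622: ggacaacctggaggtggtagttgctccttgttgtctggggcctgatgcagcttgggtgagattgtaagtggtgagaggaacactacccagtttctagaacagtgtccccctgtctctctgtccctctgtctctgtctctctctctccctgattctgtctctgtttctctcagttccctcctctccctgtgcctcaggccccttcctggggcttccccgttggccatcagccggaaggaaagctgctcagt
Both strands were searched for TGANTCA, for the E-box CACGTG, which the repressor encoded by Bhlhe40 can bind, and for GCGTG, the core bound by the aryl hydrocarbon receptor encoded by Ahr. The Fgl2 window held TGAGTCA at 16 to 10 bases before the RefSeq start, read on both strands, and GCGTG at 174 to 170 bases before it, and no CACGTG. The Ebi3 window held none of the 3 motifs. Among 32851 RefSeq windows of the same length, 6.75% held TGANTCA, 6.02% held CACGTG and 28.2% held GCGTG. The RefSeq start of Fgl2 lies downstream of the start in the annotation that gave the coordinates above, so the TGAGTCA lies within that gene model. A match describes these letters and is not a measured binding site.

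Il10 was higher in tissue Treg than in lymphoid Treg over most sources, with its highest levels in the gut wall. LPL Treg had 698, 735 and 797 CPM and IEL Treg had 221, 249 and 333 CPM. Kidney Treg had 15.4, 93.5 and 108 CPM, and pancreas Treg had 30.1, 52.7 and 77.8 CPM. Every LPL library lay above every IEL library, and every IEL library above every library of the other 8 sources, while kidney and pancreas overlapped. Peyer's patch Treg had 20.8, 21.1 and 80.7 CPM, and lung Treg had 4.11, 11.0 and 13.98 CPM. Spleen Treg had 3.09, 3.26 and 3.37 CPM, and lymph node Treg had 0.512, 0.734 and 2.30 CPM. Liver Treg, at 0.0955, 0.659 and 2.42 CPM, and blood Treg, at 0.0549, 0.284 and 0.328 CPM were lowest by mean. Kidney, pancreas and Peyer's patch overlapped one another, lung and spleen each stood apart from their neighbours, and lymph node, liver and blood overlapped.

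Over the 18 tissue Treg libraries Il10 ran from 0.0955 CPM through a median of 65.2 CPM to 797 CPM, against 0.0549, 0.734 and 3.37 CPM over the 9 lymphoid Treg libraries. Of the 18 tissue libraries, 15 lay above all lymphoid ones, and the 3 that did not were from liver. The log2 fold change between the means of the 6 tissues and of the 3 lymphoid sources was 5.54 ± 0.48 (adjusted p = 6.34e-08), the 6th smallest p of 17909 genes tested. In this comparison 4 of the 5 genes tested were called, all higher in tissue, against 21.9% of all genes called in either direction. With the 3 Treg libraries of each source summed, so that the 9 sources were the replicates, no gene of 18000 passed, and Il10 had a log2 fold change of 6.94 ± 2.20 (unadjusted p = 0.0113, adjusted p = 0.246).

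**Figure D1:**
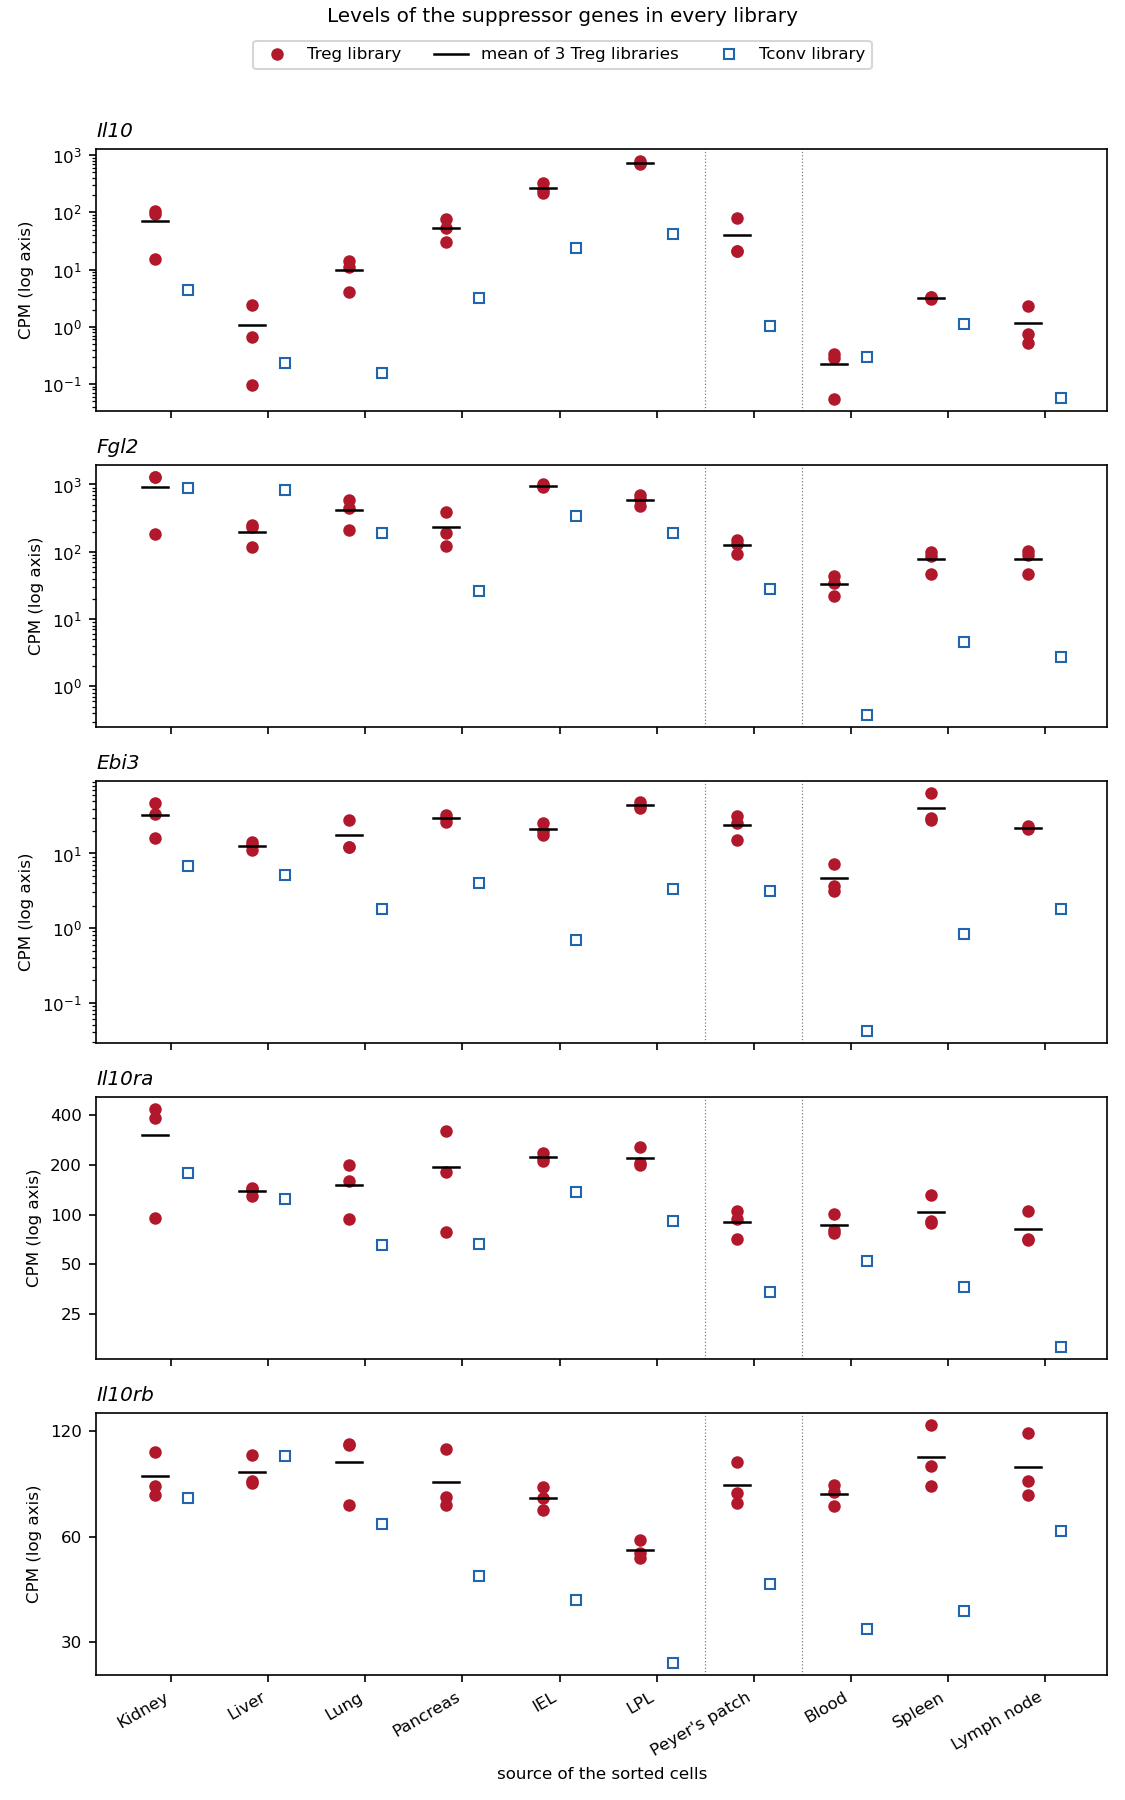
Level of Il10, Fgl2, Ebi3, Il10ra and Il10rb in every library, in CPM on a log axis, by source. Filled red circles are the 3 Treg libraries with a bar at their mean and open blue squares the Tconv library; Il10 in Treg runs from 0.0549 CPM in a blood library to 797 CPM in an LPL library, and Il10rb stays between 52.0 and 125 CPM.

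Source by source, Il10 was called higher than in lymphoid Treg in kidney, lung, pancreas, IEL, LPL and Peyer's patch. The log2 fold changes were 9.59 ± 0.60 in LPL (adjusted p = 6.54e-11), 8.12 ± 0.57 in IEL (adjusted p = 5.78e-10) and 6.23 ± 0.55 in kidney (adjusted p = 6.30e-08). They were 5.80 ± 0.55 in pancreas (adjusted p = 1.10e-07), 5.41 ± 0.55 in Peyer's patch (adjusted p = 8.97e-07) and 3.31 ± 0.56 in lung (adjusted p = 0.000506). The lung call was lost with limma-voom (2.85, adjusted p = 0.159) and against spleen alone (1.57, adjusted p = 0.171). Liver Treg did not follow, with 0.18 ± 0.67 and a 95% interval from -1.20 to 1.55. The 7 comparisons share the 9 lymphoid libraries. Of the 5 members tested, 4 were called in kidney, where 16.5% of all genes were called, 1 of 5 in liver (1.16%), 2 of 5 in lung (11.5%) and 3 of 5 in pancreas (9.95%). The counts were 3 of 5 in IEL (21.2%), 5 of 5 in LPL (27.1%) and 1 of 5 in Peyer's patch (3.57%).

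Within tissues, Il10 separated the gut wall from the solid organs. The 6 gut wall Treg libraries ran from 221 CPM through a median of 516 CPM to 797 CPM, against 0.0955, 14.7 and 108 CPM over the 12 solid organ Treg libraries. All 6 gut wall libraries lay above all 12 solid organ libraries, and the log2 fold change was 4.98 ± 0.42 (adjusted p = 7.15e-09). Of the 5 genes tested 3 were called in this comparison, 2 higher and 1 lower in the gut wall, where 23.6% of all genes were called; with counts summed per source none of the 5 was called (Il10 3.83 ± 1.31, adjusted p = 0.225). Between the layers of the gut wall, IEL Treg had less Il10 than LPL Treg in every library, but the log2 difference of -1.47 ± 0.67 did not pass (adjusted p = 0.655, 95% interval -2.85 to -0.09). In that comparison 0 of 5 genes were called and 0.0447% of all genes, 8 of 17909.

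Il10 was also higher in Treg than in Tconv. The 30 Treg libraries ran from 0.0549 CPM through a median of 14.7 CPM to 797 CPM, against 0.0556, 1.09 and 41.2 CPM in the 10 Tconv libraries. The ranges overlapped over all sources, but within a source the Tconv library lay below all 3 Treg libraries in 8 of 10, the exceptions being liver and blood, where it lay inside the Treg range. With the source in the model the log2 fold change was 3.70 ± 0.48 (adjusted p = 6.34e-07), and all 5 genes tested were called higher in Treg, where 17.1% of all genes were called in either direction. Tconv followed a similar order of sources, with 41.2 CPM in LPL, 24.2 CPM in IEL, 4.42 CPM in kidney and 3.14 CPM in pancreas, and at most 1.14 CPM in the other 6. The LPL Tconv library held 2181 CPM of 5 plasma cell markers, of which Jchain made up 1669 CPM. Their sum was 321 CPM in IEL Tconv and 142 to 309 CPM in Tconv of the solid organs. The part of plasma cell RNA in the LPL Tconv value was not tested. The mean of LPL Treg was 18.0 times the LPL Tconv level, that of pancreas Treg 17.1 times and that of kidney Treg 16.3 times, while the ratio was 2.84 in spleen and 0.757 in blood. Where the Tconv library had more than 3 counts, the highest ratio was that of Peyer's patch, 39.0. No ratio was formed for lung, liver and lymph node, where Tconv had 0.158, 0.230 and 0.0556 CPM.

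Fgl2 was the member that separated tissue from lymphoid Treg without overlap. IEL Treg had 916, 958 and 1003 CPM, kidney Treg had 184, 1270 and 1296 CPM, and LPL Treg had 483, 609 and 689 CPM. Lung Treg had 211, 441 and 593 CPM, pancreas Treg had 121, 188 and 390 CPM, and liver Treg had 119, 233 and 246 CPM. The 3 IEL libraries lay close together, whereas 1 kidney library lay far below the other 2. Peyer's patch Treg had 92.6, 132 and 150 CPM, lymph node Treg 46.2, 88.4 and 101 CPM, spleen Treg 46.8, 85.2 and 98.6 CPM and blood Treg 21.9, 34.1 and 44.1 CPM. Of neighbours in the order of means only spleen and blood did not overlap, and the order of lymph node and spleen turned round with library totals or DESeq2 size factors as the scale.

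The 18 tissue Treg libraries had 119 to 1296 CPM of Fgl2 with a median of 462 CPM, against 21.9 to 101 CPM with a median of 46.8 CPM in the 9 lymphoid Treg libraries. All 18 lay above all 9, and the log2 fold change was 2.99 ± 0.30 (adjusted p = 2.80e-07). It was called in each of the 6 tissues, with 4.04 ± 0.38 in IEL (adjusted p = 4.81e-08), 3.98 ± 0.38 in kidney (adjusted p = 1.35e-07) and 3.35 ± 0.38 in LPL (adjusted p = 5.16e-07). The fold change was 2.82 ± 0.38 in lung (adjusted p = 4.48e-05), 2.003 ± 0.38 in pancreas (adjusted p = 0.00127) and 1.77 ± 0.39 in liver (adjusted p = 0.0185). In the main comparison Fgl2 was the only member called in liver. That call was lost without liver Treg replicate 1, liver Treg replicate 3 or blood Treg replicate 4 and with no filter on low counts (adjusted p = 0.0585). Against each lymphoid source alone Fgl2 in liver did not pass, with 2.58 against blood (adjusted p = 0.0555), 1.39 against spleen (adjusted p = 0.214) and 1.34 against lymph node (adjusted p = 0.160). Against spleen alone 1 other member of the 5 was called, lower in liver Treg, where 200 of 17909 genes were called. The pancreas call was lost without pancreas Treg replicate 5 (1.42, adjusted p = 0.0538), against spleen alone (1.62, adjusted p = 0.109) and against lymph node alone (1.57, adjusted p = 0.0727). Peyer's patch Treg did not pass (1.10 ± 0.39, adjusted p = 0.135), but passed without the libraries high in myeloid markers described below (1.11 ± 0.25, adjusted p = 0.0113). With counts summed per source, tissue against lymphoid Treg gave 3.18 ± 0.61 (unadjusted p = 0.000351, adjusted p = 0.175).

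**Figure D2:**
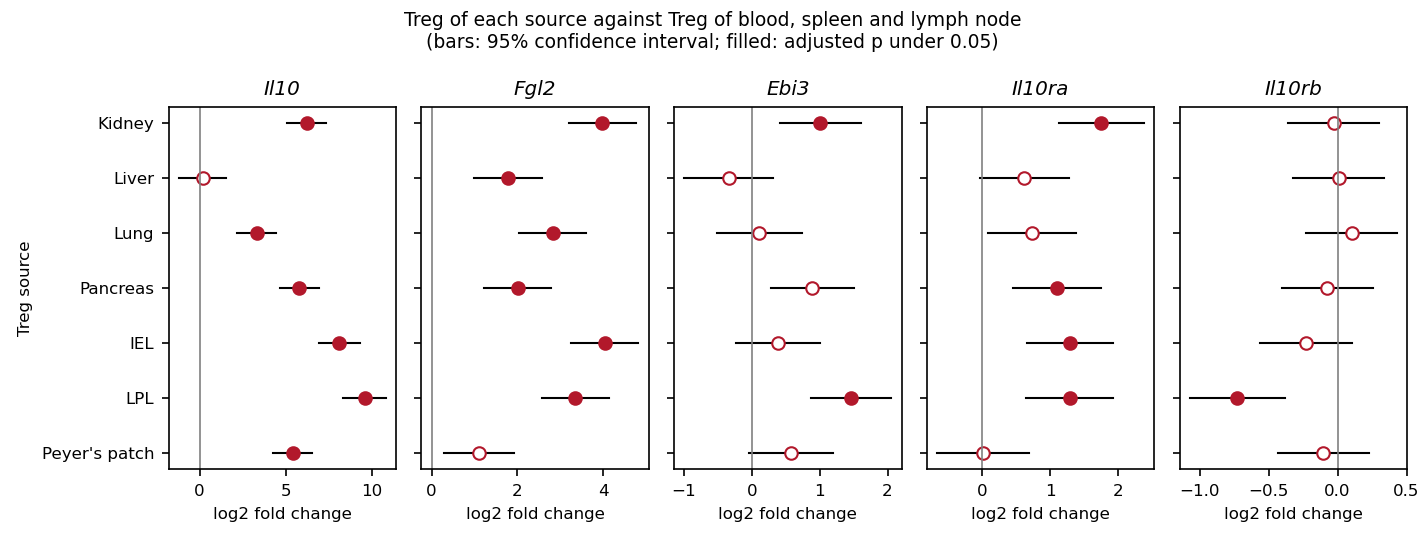
Log2 fold change of each gene in Treg of 7 sources against the mean of blood, spleen and lymph node Treg, with 95% intervals; filled points have an adjusted p under 0.05. Fgl2 is called in the 6 tissues and Il10 in every source but liver, while Il10rb lies near 0 except in LPL, where it is lower.

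FGL2 is also a product of macrophages, and markers of myeloid cells moved in part with Fgl2 in the solid organs. The summed CPM of 14 myeloid markers ran from 11.2 through 44.7 to 1669 over the tissue Treg libraries, against 5.93, 32.6 and 43.6 over the lymphoid Treg libraries (lowest, median and highest). In each of the 4 solid organs, the Treg library with the lowest sum also had the lowest Fgl2. The order of the 2 other libraries did not follow in lung, with 441 CPM of Fgl2 at a sum of 1669 CPM and 593 CPM at 499 CPM, nor in liver, with 233 CPM at 95.3 CPM and 246 CPM at 64.9 CPM. The lowest sum and the lowest level fell in the same library in 3 of 4 organs for Ebi3, Il10ra and Il10rb. For Il10 this held in 2 of 4, kidney and pancreas. In lung the library with the lowest sum, 14.4 CPM, had the most Il10, 13.98 CPM. Peyer's patch Treg had 80.7 CPM of Il10 at a sum of 122 CPM, and 20.8 and 21.1 CPM at 9.31 and 9.39 CPM. In kidney Treg the sums were 48.5, 349 and 490 CPM, the first of these in the library with 184 CPM of Fgl2. That library also held 1527 CPM of kidney tubule markers, against 31.6 and 44.9 CPM in the other kidney Treg libraries. The pancreas Treg library with 121 CPM of Fgl2 held 102560 CPM of acinar markers, against 22437 and 26206 CPM in the other pancreas Treg libraries. The part of tubule or acinar RNA in these values was not tested. In the gut wall the myeloid sums were 11.2 to 14.8 CPM, with Adgre1 at 0 in 6 of 6 libraries, Ms4a7 at 0 in 5, Cd14 and Fcgr1 at 0 in 4 each, Csf1r at most 0.122 CPM and Lyz2 at most 2.34 CPM. Those 6 libraries had 483 to 1003 CPM of Fgl2. The 14 markers include Cd68, at 7.45 to 11.4 CPM in the gut wall, and 7 of the 14 were under 1 CPM in all 6 libraries.

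Dendritic cell markers, 11 genes, moved with Fgl2, Il10ra and Il10 in kidney Treg. Their sums were 391, 2154 and 2540 CPM in the libraries with 184, 1270 and 1296 CPM of Fgl2. Those libraries had 15.4, 93.5 and 108 CPM of Il10. In pancreas Treg these markers were highest, at 1623 CPM, in the library with the most Fgl2, Il10ra and Il10. In gut wall Treg the sum was 1054 to 1917 CPM, against 131, 269 and 936 CPM (lowest, median and highest) in lymphoid Treg. Of this, Ccr9, a gut-homing receptor that T cells also carry, made up 853 to 1828 CPM in the gut wall, against 2.42 to 19.97 CPM in lymphoid Treg. The MHC class II genes of the list were lower in gut wall than in lymphoid Treg by median, with 0.633 against 15.3 CPM for H2-Aa, 6.17 against 23.7 CPM for H2-Ab1 and 113 against 210 CPM for Cd74. The 7 remaining genes summed to 9.06 to 22.1 CPM in gut wall Treg (median 15.1) and 3.40 to 16.8 CPM in lymphoid Treg (median 8.20). Of these, Flt3, Itgax, Clec9a and Cd209a were each at 0 in 5 of 6 gut wall libraries and Siglech in 2. Zbtb46 and Xcr1 were present in all 6, with medians of 6.70 and 5.78 CPM, against 6.15 and 0.460 CPM in lymphoid Treg. Gut wall Treg also held 219 to 922 CPM of 5 plasma cell markers and 78.5 to 2340 CPM of 10 intestinal epithelium markers, against 134 to 376 CPM and 6.12 to 41.3 CPM in lymphoid Treg. The part of RNA from these cells in the member levels was not tested.

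Without the 5 Treg and 2 Tconv libraries whose myeloid sum exceeded 300 CPM (an alternative chosen after seeing the data), Fgl2 in tissue against lymphoid Treg had a log2 fold change of 2.35 ± 0.19 (adjusted p = 4.26e-08). Kidney and lung then kept 1 Treg library each, which the fit takes to vary like the other groups, so their values have no replicate check of their own. The kidney library left is the one with 1527 CPM of tubule markers. On that footing Fgl2 had 1.64 ± 0.36 in kidney (adjusted p = 0.0119) and 1.84 ± 0.36 in lung (adjusted p = 0.00153), and in pancreas, with 2 libraries, 1.42 ± 0.28 (adjusted p = 0.00269). Il10 had 3.98 ± 0.67 in kidney (adjusted p = 0.00228), 3.83 ± 0.68 in lung (adjusted p = 0.00116) and 5.43 ± 0.53 in pancreas (adjusted p = 3.65e-06). Ebi3 and Il10ra in kidney and Il10ra in pancreas no longer passed. The part of myeloid RNA in the values of the libraries left out was not tested.

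**Figure D3:**
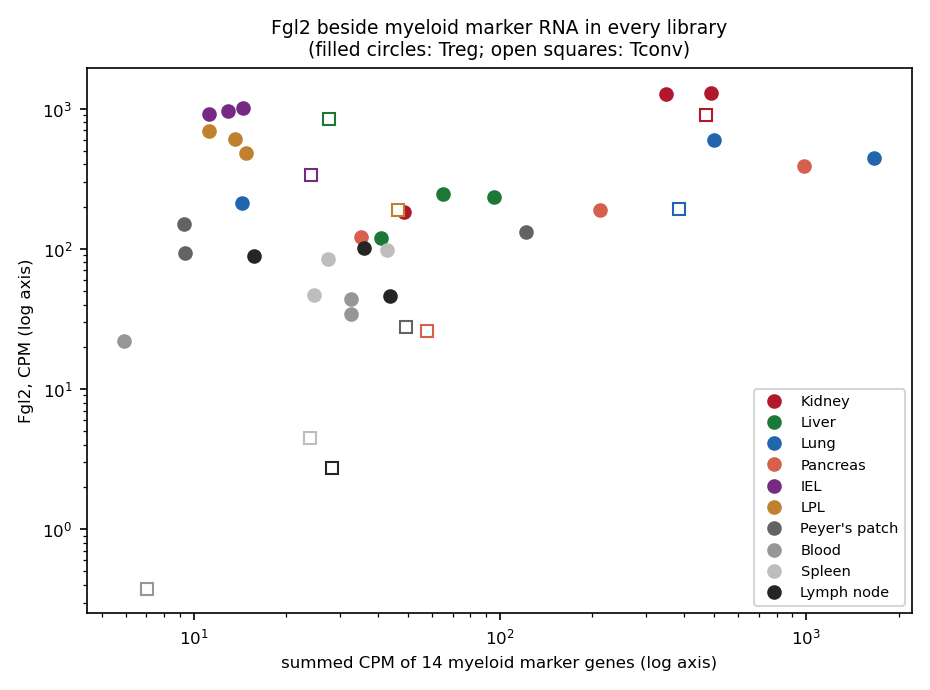
Fgl2 level (TMM-scaled CPM) against the summed level of 14 myeloid markers (CPM without the TMM factor) in each of the 40 libraries, on log axes. The 6 gut wall Treg libraries hold 483 to 1003 CPM of Fgl2 at myeloid sums of 11.2 to 14.8 CPM, and the 2 higher kidney Treg libraries hold 1270 and 1296 CPM at sums of 349 and 490 CPM.

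Gut wall Treg had 483, 803 and 1003 CPM of Fgl2 (lowest, median and highest of 6), against 119, 239 and 1296 CPM in the 12 solid organ Treg libraries. The ranges overlapped, with 1 lung library inside the gut wall range and 2 kidney libraries above it, and the log2 fold change of 1.05 ± 0.30 passed (adjusted p = 0.0130). Those lung and kidney libraries held 499, 349 and 490 CPM of myeloid markers. Without the libraries high in these markers the log2 fold change was 2.03 ± 0.25, with 1 kidney and 1 lung Treg library left. IEL Treg lay above LPL Treg in every library, but the difference of 0.69 ± 0.51 did not pass (adjusted p = 0.891, 95% interval -0.36 to 1.75).

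In Tconv, too, Fgl2 stood higher in tissue libraries than in lymphoid ones. Tconv had 901 CPM in kidney, 840 CPM in liver, 338 CPM in IEL, 193 CPM in lung, 189 CPM in LPL and 26.0 CPM in pancreas, against 4.51 CPM in spleen, 2.73 CPM in lymph node and 0.377 CPM in blood. All 6 tissue libraries lay above all 3 lymphoid ones, and the log2 fold change was 7.35 ± 1.37 with the 9 libraries as replicates, which did not pass (adjusted p = 0.0950), but passed without pancreas Tconv (7.59, adjusted p = 0.0244). In that comparison 0 of 5 members and 0% of all genes passed, 0 of 14453, with 2103 at an unadjusted p under 0.05; DESeq2's Wald test called 1085 genes and limma-voom 1369. DESeq2's Wald test called Fgl2 (adjusted p = 1.45e-09), Il10 (4.61 ± 1.33, adjusted p = 0.0117) and Il10ra (1.64 ± 0.45, adjusted p = 0.00648), and limma-voom called Fgl2 and Il10ra. Kidney Tconv held 471 CPM and lung Tconv 384 CPM of the 14 myeloid markers, the other tissue Tconv 24.2 to 57.6 CPM and lymphoid Tconv 7.06 to 28.3 CPM. Liver Tconv held 27.5 CPM of them, and the summed level of 5 NK markers was 281 CPM there, against 19.1 to 99.5 CPM in the other 9 Tconv libraries. Of that liver sum, Klrb1c made up 185 CPM and Klrd1 90.3 CPM. Eomes was at 3.14 CPM, Ncr1 at 2.59 CPM and Klra8 at 0 in liver Tconv, while pancreas Tconv had 15.3 CPM of Eomes and 2.69 CPM of Ncr1. The part of NK or myeloid RNA in these Tconv values was not tested.

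Beside these Tconv levels, Treg had more Fgl2 in 8 of 10 sources. In kidney the Tconv library lay inside the Treg range, and in liver it lay above all 3 Treg libraries, with a ratio of the Treg mean to Tconv of 0.237. The ratio was 88.4 in blood, 28.9 in lymph node and 17.1 in spleen, against 2.15 to 8.97 in lung, pancreas, IEL and LPL. Over lymphoid sources the log2 fold change of Treg over Tconv was 5.13 ± 0.60 (adjusted p = 1.86e-06), and over tissues 0.89 ± 0.31 (adjusted p = 0.0530). The fit takes the lone Tconv library of a source to vary like its Treg libraries. Without the libraries high in myeloid markers, kidney and lung had no Tconv library left. The value was then 0.93 ± 0.25 over liver, pancreas, IEL and LPL, and is not one of the same tissues. The value of 0.89 passed the threshold without any of 6 libraries, among them liver Tconv (1.49). The difference of the tissue value from the lymphoid one was -4.23 ± 0.62 (adjusted p = 0.000309). Over all sources Fgl2 in Treg against Tconv passed at 1.55 ± 0.51 (adjusted p = 0.0318), but the call was lost without any of 7 Tconv libraries (blood, IEL, LPL, lymph node, pancreas, Peyer's patch or spleen), and without the filter on low counts (adjusted p = 0.0878). It was also lost with Treg counts summed per source (2.18 ± 0.69, adjusted p = 0.0522).

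For all members, 4 of 5 were called higher in Treg over tissues, where 15% of all genes were called, and 4 of 5 over lymphoid sources, where 9.68% were; Il10ra was lost from these without lymph node Tconv (1.11, adjusted p = 0.161). The difference between tissues and lymphoid sources was called for 2 of 5, Fgl2 and Ebi3, against 1.76% of all genes. Il10 was called over tissues (3.97 ± 0.54, adjusted p = 9.59e-06) and not over lymphoid sources (1.81 ± 1.01, adjusted p = 0.323), but the difference between these did not pass (2.16 ± 1.82, adjusted p = 0.739). The difference for Fgl2 and Ebi3 was not called by limma-voom, with -4.07 (adjusted p = 0.190) for Fgl2 and -1.94 (adjusted p = 0.445) for Ebi3.

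**Figure D4:**
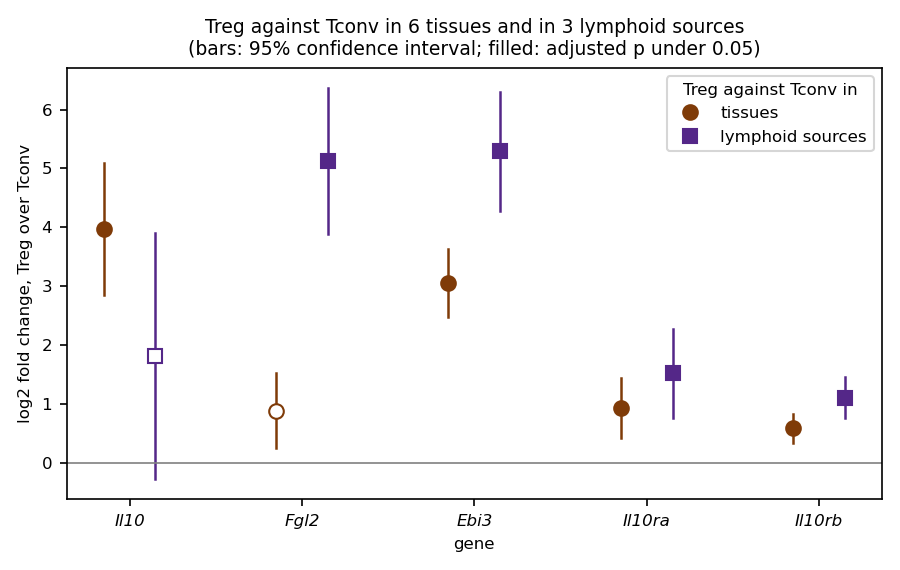
Log2 fold change of Treg over Tconv for each gene in tissues and in lymphoid sources, with 95% intervals. Fgl2 stands at 0.89 in tissues and 5.13 in lymphoid sources and Ebi3 at 3.06 and 5.29, while Il10 stands at 3.97 and 1.81.

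Ebi3, the chain shared by IL-35 and IL-27, marked Treg in every source. The 30 Treg libraries ran from 3.17 CPM through a median of 24.2 CPM to 64.9 CPM, against 0.0419, 2.47 and 6.89 CPM in the 10 Tconv libraries. In 10 of 10 sources the Tconv library lay below all 3 Treg libraries, and the log2 fold change was 3.27 ± 0.33 (adjusted p = 4.12e-09). It was 5.29 ± 0.49 over lymphoid sources (adjusted p = 3.68e-08) and 3.06 ± 0.28 over tissues (adjusted p = 2.03e-08). The difference of -2.23 ± 0.52 passed (adjusted p = 0.0211), but not without the Tconv library of blood (-1.57, adjusted p = 0.158), liver (-1.89, adjusted p = 0.0782) or spleen (-2.07, adjusted p = 0.151). The blood Tconv value of 0.0419 CPM lay under the limit of 3 counts.

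Across Treg sources Ebi3 did not follow the split between tissue and lymphoid. LPL Treg had 40.7, 42.8 and 49.4 CPM, spleen Treg 28.6, 29.6 and 64.9 CPM, and kidney Treg 16.3, 34.0 and 47.0 CPM. At the other end were liver Treg with 11.0 to 14.1 CPM and blood Treg with 3.17, 3.70 and 7.13 CPM. Pancreas, Peyer's patch, lymph node, IEL and lung Treg lay between, with means of 29.8, 24.0, 22.2, 21.0 and 17.5 CPM. Tissue Treg had 11.0, 26.0 and 49.4 CPM (lowest, median and highest), against 3.17, 22.1 and 64.9 CPM in lymphoid Treg, and no tissue library lay above all lymphoid ones.

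The log2 fold change of Ebi3 in tissue against lymphoid Treg was 0.59 ± 0.19 (adjusted p = 0.0322), and its sign depended on which lymphoid source was the reference. Against blood alone it was 2.38 ± 0.35 (adjusted p = 7.69e-05), against lymph node alone 0.12 ± 0.29 (adjusted p = 0.873) and against spleen alone -0.74 ± 0.27 (adjusted p = 0.0886). The call was also lost without any of 7 Treg libraries (blood replicate 4 or 5, kidney replicate 3, lymph node replicate 7 or 10, spleen replicate 2 or 4), and without the libraries high in myeloid markers (0.32 ± 0.18, adjusted p = 0.246). By source, Ebi3 was called in LPL (1.46 ± 0.29, adjusted p = 0.000484) and kidney (1.01 ± 0.29, adjusted p = 0.0191). The LPL call was lost against spleen alone (0.13, adjusted p = 0.879) and lymph node alone (0.999, adjusted p = 0.0615), and the kidney call against spleen alone (-0.32, adjusted p = 0.676) and lymph node alone (0.55, adjusted p = 0.349). The kidney call was also lost without kidney Treg replicate 3 or 5, the libraries with 349 and 490 CPM of myeloid markers. IEL Treg had less Ebi3 than LPL Treg in every library, 17.7 to 25.6 CPM against 40.7 to 49.4 CPM, but the difference of -1.08 ± 0.38 did not pass (adjusted p = 0.429). Between gut wall and solid organ Treg, Ebi3 was not called in the main comparison. Its log2 fold change there was 0.91 ± 0.23 without the libraries high in myeloid markers, and 0.49 to 0.51 over the other settings.

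**Figure D5:**
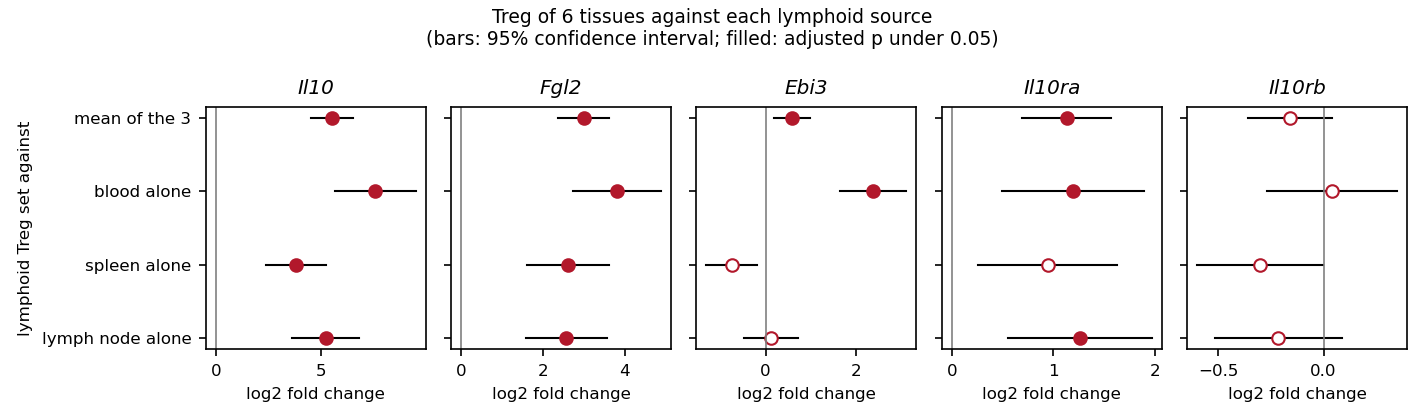
Log2 fold change of each gene in tissue Treg against the mean of the 3 lymphoid sources and against blood, spleen or lymph node Treg alone, with 95% intervals. Ebi3 lies at 2.38 against blood, -0.74 against spleen and 0.12 against lymph node, while Il10 and Fgl2 lie above 0 against each.

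Il12a, the other chain of IL-35, was at or near the limit of detection. It had counts in 5 of 30 Treg libraries, 34 in all, and in 5 of 10 Tconv libraries, 47 in all. Pooled, this was 0.0502 CPM in Treg (95% exact Poisson interval 0.0348 to 0.0702) and 0.250 CPM in Tconv (0.183 to 0.332), where the intervals cover counting error only. The highest Treg value was 15 counts (0.634 CPM) in kidney replicate 5, and the highest Tconv value 18 counts (0.915 CPM) in LPL. That LPL Tconv library held 2181 CPM of 5 plasma cell markers, and the part of plasma cell RNA in its value was not tested. Il12a did not reach the count filter in any of the 15 comparisons as reported here. It was tested without the filter, with the replicate number as a block and without single Tconv libraries, and was called in none of these.

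Of the receptor chains, Il10ra was higher in tissue Treg. Kidney Treg had 94.96, 383 and 434 CPM and pancreas Treg had 78.9, 181 and 318 CPM. The gut wall was more even, with 210 to 235 CPM in IEL Treg and 200 to 254 CPM in LPL Treg. The low kidney and pancreas values came from the libraries with the lowest myeloid sum of their organ, 48.5 and 35.3 CPM. Tissue Treg had 78.9, 199 and 434 CPM (lowest, median and highest), against 70.6, 88.5 and 131 CPM in lymphoid Treg, and 14 of 18 tissue libraries lay above all lymphoid ones. The log2 fold change was 1.13 ± 0.21 (adjusted p = 0.000422), and 0.64 ± 0.14 (adjusted p = 0.00199) without the libraries high in myeloid markers. Against spleen alone the call was lost (0.94 ± 0.33, adjusted p = 0.0803).

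Il10ra was called higher than in lymphoid Treg in kidney (1.76 ± 0.31, adjusted p = 0.000268), IEL (1.30 ± 0.31, adjusted p = 0.00367), LPL (1.29 ± 0.31, adjusted p = 0.00298) and pancreas (1.10 ± 0.31, adjusted p = 0.0244). Without the libraries high in myeloid markers kidney, with its 1 library left, had 0.06 ± 0.31 and pancreas 0.54 ± 0.23 (adjusted p = 0.149). The pancreas call was also lost without pancreas Treg replicate 1 (adjusted p = 0.0689) or replicate 5 (0.55, adjusted p = 0.436), with no filter on low counts (adjusted p = 0.0606) and against each lymphoid source alone (adjusted p = 0.0731 to 0.259). Against spleen alone the IEL (1.11, adjusted p = 0.0966) and LPL (1.10, adjusted p = 0.0794) calls were lost. Gut wall and solid organ Treg did not differ past the threshold (0.24 ± 0.25, adjusted p = 0.545), but did so without those libraries (0.98 ± 0.18, adjusted p = 0.000400). Liver Treg had 129 to 144 CPM and did not pass (0.62 ± 0.32, adjusted p = 0.446). Treg exceeded Tconv by 1.10 ± 0.20 on the log2 scale (adjusted p = 9.78e-05), with the Tconv library below all 3 Treg libraries in 9 of 10 sources and inside their range in kidney. Tconv of the 6 tissues had 65.3 to 179 CPM, all above the 15.9 to 52.7 CPM of lymphoid Tconv.

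Il10rb, the chain also used by the receptors for IL-22 and interferon lambda, moved little, and where it was called between Treg sources it was lower in the gut wall. LPL Treg had 52.0, 53.8 and 58.8 CPM and IEL Treg 71.6 to 82.96 CPM, while Treg of the other 8 sources had 73.6 to 125 CPM. Every LPL library lay below every other Treg library, and the log2 fold change against lymphoid Treg was -0.73 ± 0.17 (adjusted p = 0.00207), which did not pass against blood alone (-0.53, adjusted p = 0.0635). Gut wall Treg against solid organ Treg gave -0.48 ± 0.12 (adjusted p = 0.00564), with 4 of 6 gut wall libraries below all 12 solid organ ones; without the libraries high in myeloid markers this was -0.28 (adjusted p = 0.127). Tissue against lymphoid Treg did not pass (-0.16 ± 0.10, adjusted p = 0.271, 95% interval -0.36 to 0.04), but was called lower without the libraries high in myeloid markers (-0.29 ± 0.10, adjusted p = 0.0454). In Treg against Tconv Il10rb was called higher by 0.75 ± 0.12 (adjusted p = 1.14e-05), and the Tconv library lay below all 3 Treg libraries in every source but liver. LPL had the lowest value in Tconv too, at 26.2 CPM.

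Across the 10 Treg source means, on log2(CPM + 1), Fgl2 and Il10ra had the closest pattern of any pair of members (r = 0.92, rank correlation 0.92). Il10 had r = 0.79 with Fgl2, 0.74 with Il10ra, 0.62 with Ebi3 and -0.67 with Il10rb; the points share the same libraries and no test was made. Among 9383 other genes, the patterns most like Il10 were those of Ehd1 (r = 0.98), the inhibitory receptor gene Ctla4 (r = 0.98) and the stress gene Gadd45b (r = 0.97). For Fgl2 they were Cxcr6, a chemokine receptor gene (r = 0.97), Crmp1 (r = 0.97) and Metrnl (r = 0.96). For Ebi3 they were the enkephalin precursor gene Penk (r = 0.98), Nab2 (r = 0.96) and Cdcp1 (r = 0.93). For Il10ra they were Mkrn2 (r = 0.97), Chsy1 (r = 0.95) and Sord (r = 0.95), and for Il10rb Tmem250-ps (r = 0.91), Sf3b5 (r = 0.89) and Trbv20 (r = 0.89).

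Genes of the same routes were followed as 6 lists of 58 genes. Of 12 regulators of Il10 transcription, 11 were called higher in tissue than in lymphoid Treg and 0 lower, with a median log2 fold change of 1.35 against 0.03 over all genes tested, of which 21.9% were called. The libraries are those whose myeloid and dendritic cell sums are given above, and the part of these cells in the list values was not tested. They included Bhlhe40, a repressor of Il10 (3.64 ± 0.32), the basic leucine zipper factor Nfil3 (3.19 ± 0.35), Id2 (2.06 ± 0.22) and the aryl hydrocarbon receptor Ahr (1.37 ± 0.15). Bhlhe40 averaged 825 ± 614 CPM in tissue Treg and 62.4 ± 45.8 CPM in lymphoid Treg (SD, n = 18 and 9). In LPL Treg, where 27.1% of all genes were called, 10 of 12 were called higher, with 5.30 ± 0.40 for Bhlhe40 and 2.54 ± 0.21 for Ahr. In liver Treg, where 1.16% of all genes were called, the count was 0 of 12. In Peyer's patch Treg, at 3.57% of all genes, 4 of 12 were called higher, among them Nfil3 (3.01) and Maf (2.002), a factor that drives Il10 in T cells.

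The regulators also differed within tissues and between cell types. In gut wall against solid organ Treg 6 of 12 were called higher and 0 lower, where 23.6% of all genes were called, led by Ahr (1.73 ± 0.16), Maf (1.31 ± 0.18) and Prdm1, the gene of BLIMP1 (1.73 ± 0.28). In Treg against Tconv, where 17.1% of all genes were called, 8 were higher and 1 lower, Id2 (-1.33 ± 0.27), with Gata3 (1.29 ± 0.13) and Nfil3 (1.996 ± 0.28) among the higher. The excess of Treg over Tconv was smaller in tissues than in lymphoid sources for 3 of 12, against 1.76% of all genes called, Ahr (-1.97 ± 0.30), Maf (-1.98 ± 0.33) and Bhlhe40 (-2.58 ± 0.57), and larger for 0. Ahr averaged 161 CPM in tissue Tconv and 12.5 CPM in lymphoid Tconv.

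Of the JAK-STAT route of IL-10 and IL-35, 10 genes, 5 were higher and 1 lower in tissue than in lymphoid Treg, where 21.9% of all genes were called, with a median of 0.63. Higher were the STAT3 targets Bcl3 (1.12 ± 0.12) and Pim1 (1.13 ± 0.18) and Stat3 itself (0.77 ± 0.17), and lower was the feedback inhibitor Socs1 (-0.68 ± 0.14). Treg against Tconv had 4 of 10 higher and 0 lower, at 17.1% of all genes called, among them Bcl3 (1.002 ± 0.12) and Pim1 (1.29 ± 0.19). Of 9 IL-12 family cytokine and receptor genes 6 were tested, and 2 were higher and 1 lower in tissue than in lymphoid Treg, at 21.9% of all genes called. Il12rb1, a chain of the IL-12 and IL-23 receptors, rose by 1.61 ± 0.23, Il12rb2, a chain of the IL-12 and IL-35 receptors, by 3.74 ± 0.85, and Il6ra was lower (-1.31 ± 0.22). Against Tconv, Il12rb2 was lower in Treg (-3.01 ± 0.63) and Il12rb1 higher (0.88 ± 0.24).

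Of 9 genes of IL-10 relatives and their receptors 4 were tested. In tissue against lymphoid Treg 1 was called, Il20rb (4.36 ± 0.85), where 21.9% of all genes were called. All 4 were called higher in LPL Treg, where 27.1% of all genes were called. Il22, the cytokine that shares Il10rb in its receptor, had 2.98 to 14.3 CPM in LPL Treg and 0 in all 9 lymphoid Treg libraries; it was lower in Treg than in Tconv (-5.41 ± 0.71), where it reached 157 CPM. Of 6 fibrinogen-like and Fgl2 receptor genes 5 were tested and 0 passed in tissue against lymphoid Treg, with 4 higher in kidney, where 16.5% of all genes were called, and 3 in liver, where 1.16% were. The kidney Treg libraries held 48.5, 349 and 490 CPM of myeloid markers and 391 to 2540 CPM of dendritic cell markers. The part of RNA from these cells in the kidney values was not tested. Among the 3 in liver, Fga, a fibrinogen chain gene of hepatocytes, had 3.96 to 10.8 CPM in liver Treg and 0 in all 9 lymphoid Treg libraries, and the summed hepatocyte markers there were 19.5 to 94.8 CPM; the part of hepatocyte RNA was not tested.

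Of 12 other Treg suppressor genes 10 were higher in tissue than in lymphoid Treg and 0 lower, where 21.9% of all genes were called, with a median of 1.503. Gzmb, the gene of granzyme B, was higher by 3.66 ± 0.38, the inhibitory receptor genes Lag3 by 2.32 ± 0.25 and Tigit by 1.88 ± 0.21, and Icos by 1.56 ± 0.19. In liver Treg, at 1.16% of all genes, 2 of 12 were called, Gzmb (2.17 ± 0.47) and Entpd1, the gene of CD39 (0.76 ± 0.17). Gzmb averaged 2773 ± 1140 CPM in gut wall Treg and 36.5 ± 28.5 CPM in solid organ Treg (SD, n = 6 and 12; log2 fold change 6.53 ± 0.41). Against Tconv 10 of 12 were higher in Treg and 0 lower, at 17.1% of all genes called, with Lrrc32, which displays latent TGF-beta (7.90 ± 0.46), Ctla4 (3.03 ± 0.32), Tnfrsf18 (2.01 ± 0.16) and Nt5e (1.65 ± 0.15) leading. Entpd1 was the only gene of the 12 whose excess in Treg differed between tissues and lymphoid sources (-3.03 ± 0.24), against 1.76% of all genes called. It had 53.4 CPM in tissue Tconv and 3.17 CPM in lymphoid Tconv.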

How the data were processed

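The deposited table holds raw counts per gene for 40 libraries, 1 column each. Per the labels' protocols, RNA was made into QuantSeq 3′ mRNA libraries by Lexogen. Per the submitters' processing notes, FastQC, Trim Galore, STAR, featureCounts, MultiQC, DESeq2 and DESeq were used with build mm10; versions, the annotation release and strand use are not given in the sources used here. Of 55421 identifiers, 55154 could be given a symbol.

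The tests on counts used edgeR 4.0.16 under R 4.3.3, with filterByExpr, TMM, a trended dispersion, robust glmQLFit and glmQLFTest, Benjamini-Hochberg adjustment over all genes tested, and calls at 0.05. Tissue and lymphoid Treg were compared as unweighted means over sources in 1 fit of the 30 Treg libraries. Treg and Tconv were compared over 40 libraries with source as a factor, and by source group in a fit with 1 mean for each cell type of each source. Tconv groups used 9 libraries, with the source as replicate. The fits were tested on simulated data. Alternatives were DESeq2 1.42.0, limma 3.58.1 (voom with quality weights), size factors, no filter, a block for the replicate number, counts summed per source, each lymphoid source alone, and leaving out each library. Leaving out libraries with over 300 CPM (library total, no TMM factor) of 14 myeloid markers was added after seeing the data.

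The members and lists were chosen with earlier results of these data known. Named besides members were up to 4 genes per list with the smallest p, and the 3 genes with the highest r to a member over source means among genes of at least 5 CPM, leaving out predicted genes. Python 3.11.15 and matplotlib 3.10.9 made the figures. RefSeq sequences are from GRCm38.p6.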

Additional observations from a re-analysis of the deposited data

Results flagged for a closer look

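Of 24 combinations of a gene and a group of 6 to 10 libraries, 3 held a library far from the others by Dixon's test. The chance rate of about 1 in 20 is that of normally distributed values and not of libraries pooled over sources. For Il12a, any lone value above 0 among zeros is flagged, with a gap over range of 1. Its flags were thus fixed by sparse counts. Ebi3 in spleen Treg replicate 3, at 64.9 CPM, stood above the other 8 lymphoid Treg libraries, of which the next had 29.6 CPM. Il12a was at 0.167 CPM in lymph node Treg replicate 6 and at 0 in the other 8 lymphoid Treg libraries. It was at 0.131 CPM in IEL Treg replicate 3 and at 0 in the other 5 gut wall Treg libraries.

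Fgl2 and Ebi3 differed between tissues and lymphoid sources in their excess of Treg over Tconv, by the test of the difference itself, Fgl2 by -4.23 and Ebi3 by -2.23 on the log2 scale, both smaller in tissues.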

How the results depend on the processing

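Over the other settings, leaving out a library apart, 435 of 525 member results kept their direction and their side of the threshold. Called members in tissue against lymphoid Treg numbered 2 against spleen alone and 0 with counts summed per source; in liver 0 with no filter, with the replicate block, against blood alone and against lymph node alone; in lung 1 with limma-voom, with the replicate block and against spleen alone; in pancreas 1 against spleen alone and 1 against lymph node alone; in LPL 3 against spleen alone; in Peyer's patch 2 with limma-voom, 3 against blood alone and 2 without libraries high in myeloid markers; in kidney 2 without those. They numbered 0 in gut wall against solid organ Treg with counts summed per source, 3 in IEL against LPL Treg with limma-voom, 3 in Tconv with DESeq2 and 2 with limma-voom, and, for the Treg-Tconv difference, 0 with limma-voom and 1 with the replicate block. The cause was not tested.

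Leaving out 1 library gave 0 to 1 called members in liver, 1 to 4 in pancreas, 0 to 1 in Tconv, 1 to 2 for the Treg-Tconv difference, 3 to 4 in tissue against lymphoid Treg, in kidney, in gut wall against solid organ Treg and in Treg against Tconv of lymphoid sources, and 4 to 5 in Treg against Tconv and in tissues. Signs changed for uncalled values: Il10rb in kidney (-0.177 to 0.0533), liver (-0.0637 to 0.0688), lung (-0.0145 to 0.254) and pancreas (-0.260 to 0.0506), Il10 in liver (-1.40 to 0.70), Ebi3 in lung (-0.42 to 0.31), and Il10ra in Peyer's patch (-0.11 to 0.19) and IEL against LPL (-0.0534 to 0.150).

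Other sign changes were these. With DESeq2 size factors and its Wald test, Il10rb in liver was -0.0156 and -0.0155, Il10ra in Peyer's patch -0.00473 and -0.00477, and Il10ra in IEL against LPL -0.00434 and -0.00433. With limma-voom Il10rb in kidney was 0.0719. With the replicate block Il10rb in kidney was 0.0293 and Il10 in liver -0.42. Against blood, Il10rb was 0.0402 in tissue, 0.17 in kidney, 0.12 in pancreas and 0.10 in Peyer's patch, and Ebi3 in liver 1.45. Against spleen, Ebi3 was -0.74 in tissue, -0.32 in kidney, -1.22 in lung, -0.44 in pancreas, -0.95 in IEL and -0.75 in Peyer's patch, Il10 in liver -1.56, Il10rb -0.14 in liver and -0.0415 in lung, and Il10ra in Peyer's patch -0.18. Against lymph node, Il10 in liver was -0.14, Il10rb in liver -0.0492, and Ebi3 -0.35 in lung and -0.0769 in IEL. Without libraries high in myeloid markers Ebi3 was -7.60e-05 in kidney and -0.41 in lung, and Il10rb in lung -0.32. The Ebi3 values of tissue and kidney were called in the main comparison.

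Replicate numbers left no visible pairing of Treg libraries: over 58 pairs with the same number the median correlation of deviations was -0.0156, with 6 over 0.1. Over 347 pairs with different numbers the median was 0.00322, with 39 over 0.1. This check left out Tconv and cannot show whether libraries share an animal. The replicate number was also fitted as a block. With that block the calls of Il10rb in gut wall against solid organ Treg (-0.47, adjusted p = 0.0503), Il10 in lung (2.60, adjusted p = 0.0596), Fgl2 in liver (2.29, adjusted p = 0.111), Il10ra in pancreas (1.17, adjusted p = 0.138) and in Treg against Tconv of lymphoid sources (1.34, adjusted p = 0.0604), and Ebi3 in tissue (0.65, adjusted p = 0.196), kidney (1.14, adjusted p = 0.126) and the Treg-Tconv difference (-2.07, adjusted p = 0.201) were lost. Over the same settings, counts of all genes called ran from 632 to 3467 for Treg against Tconv, 0 (counts summed per source) to 6116 for tissue against lymphoid Treg, 875 to 5330 for kidney, 7 to 1412 for liver, 540 to 2642 for lung, 365 to 4778 for pancreas, 1339 to 6675 for IEL, 2081 to 7815 for LPL, 146 to 2869 for Peyer's patch, 104 to 6714 for gut wall against solid organs, 8 to 1059 for IEL against LPL, 0 to 1369 for Tconv, 1000 to 2107 for lymphoid sources and 154 to 601 for the Treg-Tconv difference. The lowest counts came mostly with the replicate block and the highest with limma-voom. Without 1 library they ran from 52 to 438 for liver, 1603 to 3482 for kidney, 348 to 1205 for Peyer's patch, 1 to 8 for IEL against LPL and 134 to 439 for the Treg-Tconv difference. They ran from 1010 to 2561 for pancreas, 2444 to 4494 for IEL, 842 to 1735 for lymphoid sources and 0 to 115 for Tconv.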
